A study of Arabidopsis thaliana with 8 samples.

Results

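Seedlings of 2 Arabidopsis thaliana mutants, agb1 and hy5, were compared directly by RNA sequencing, without reference to wild type. The comparison rests on 4 of the 8 libraries of the study, 2 labelled agb1 and 2 labelled hy5, each pair described as biological replicates. All plants were of ecotype Col-0. The agb1 plants carry the allele agb1-2, and the labels name no allele for hy5. Both mutants were raised in the same way, on medium with 1% sucrose, with 3 days at 4 degrees and 12 h of white light before 4.5 days in blue light, and RNA was taken from whole seedlings. The 4 libraries not tested here are 2 of wild type (WT) and 2 of the cry1 cry2 double mutant, which lacks the cryptochrome blue-light receptors. Nothing in the labels ties a mutant library to a culture dish or a seed batch.

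AGB1 encodes the G-beta protein of the heterotrimeric complex, which relays signals from the plasma membrane and is known in seedlings for its part in cell division, hypocotyl growth, defence and sugar and hormone responses. HY5 encodes a basic leucine zipper transcription factor that accumulates in light, when the COP1 ubiquitin ligase no longer removes it, and binds promoters with an ACGT core, the G-box CACGTG among them. It is known for promoting greening, flavonoid synthesis and short hypocotyls. Seedlings without HY5 have long hypocotyls in light.

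The libraries held 18850338 and 15651218 counted reads for agb1 and 17363965 and 20072882 for hy5, and levels are given as read counts scaled to library size (CPM). At the smallest total, 3 reads correspond to 0.192 CPM. A difference is the log2 fold change of agb1 minus hy5 with its standard error, so that a positive value means a higher level in agb1. Calls come from edgeR's quasi-likelihood test over all 20252 loci with enough reads, at a threshold of 0.05 on the p-value adjusted by the method of Benjamini and Hochberg. The mutants differed in 10203 loci, which is 50.4% of those tested. Of these, 4922 (24.3%) were higher in agb1 and 5281 (26.1%) were higher in hy5. Differences of at least 2-fold were called in 2106 loci (10.4%), 982 (4.85%) higher in agb1 and 1124 (5.55%) higher in hy5, and differences of at least 4-fold in 379, of which 198 were higher in agb1 and 181 in hy5. The median over all loci tested was -0.00030. With 2 libraries per genotype and so many calls, a call alone sets no gene or group apart. The libraries of the genotypes did not overlap in 15027 (74.2%) of the loci tested and in 10182 of the 10203 called. Statements below that the genotypes did not overlap, or that both libraries of a genotype lay higher, therefore add little to a call. The shares of 24.3% and 26.1% are the measure for each count below. That measure only describes, since the lists and families were chosen with earlier results of these data known.

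**Figure D1:**
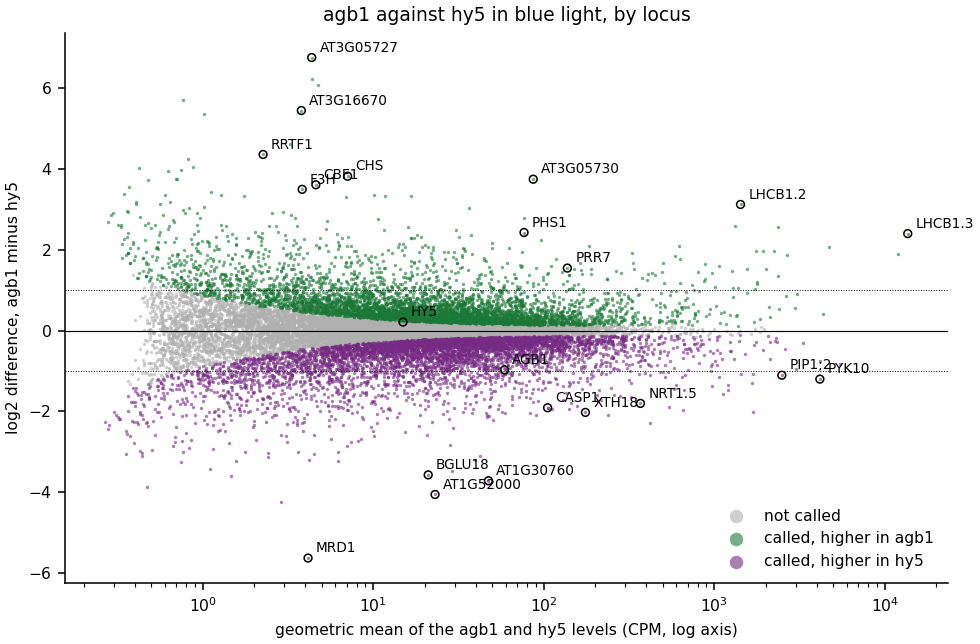
Log2 difference (agb1 minus hy5) of each locus against the geometric mean of the levels in the 2 genotypes, on a log axis of CPM. Called loci are in colour, dotted lines mark 2-fold differences, and 39 loci with at most 3 reads over a genotype are not drawn; the labelled LHCB1.2 stands at 3.12 and MRD1 at -5.63.

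The targeted genes were examined first. AGB1 stood at 42.6 and 41.5 CPM in agb1 and 82.9 and 82.1 CPM in hy5, a difference of -0.97 ± 0.065 (adjusted p = 1.24e-13). Both agb1 libraries lay below both hy5 libraries, but the transcript was far from absent. HY5 stood at 16.01 and 16.1 CPM in agb1 and 13.4 and 14.3 CPM in hy5, a difference of 0.21 ± 0.10 that was not called (adjusted p = 0.0912). Some hy5 alleles leave the transcript in place, so the reads at HY5 do not check the label of the hy5 libraries. Of the other G protein genes, AGG3, an atypical gamma subunit, stood at 2.38 and 2.77 CPM in agb1 and 1.24 and 1.26 CPM in hy5 (1.03 ± 0.28), a call that was lost with DESeq2 (adjusted p = 0.0535). In the whole list of 10 G protein genes 3 were higher in agb1 and 2 in hy5, with a median of -0.00077. The share called, 50%, was near the 50.4% over all loci. Leaving out agb1 replicate 1, agb1 replicate 2, hy5 replicate 1 or hy5 replicate 2 gave 2, 2, 1 and 2 higher in agb1 and 1, 0, 0 and 2 higher in hy5.

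Genes of the light-harvesting antenna were higher in agb1 and had the highest median of the 31 lists of genes examined. The antenna proteins bind chlorophyll and pass light energy to the photosystems, with LHCB proteins serving photosystem II and LHCA proteins photosystem I. Of 20 tested members 17 were called higher in agb1, all of them by at least 2-fold, and 2 were higher in hy5; the median was 1.86. LHCB1.2 stood at 4243 and 4170.4 CPM in agb1 and 473 and 494 CPM in hy5 (difference 3.12 ± 0.048, adjusted p = 4.85e-29). LHCB3 stood at 3277 and 3243 CPM in agb1 and 543 and 545 CPM in hy5 (2.58 ± 0.048), and LHCA1 at 3869 and 3729 CPM in agb1 and 979 and 960.4 CPM in hy5 (1.97 ± 0.046). In each of these genes the lower agb1 library was several times above the higher hy5 library. LHCB1.1, LHCB1.2 and LHCB1.3 are near-identical copies, and how reads matching several places were handled is not given, which leaves the value of each copy uncertain. The members higher in hy5 were LHCB4.3 (-0.89 ± 0.13) and LHCA6 (-0.51 ± 0.079), and LHCA5 was not called (0.13 ± 0.066, adjusted p = 0.0974).

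The reaction centres followed with smaller differences. Of 28 nuclear genes for photosystem subunits and electron carriers 26 were higher in agb1, 11 of them by at least 2-fold, and 2 were higher in hy5, with a median of 0.92. PSBQ-2, of the oxygen-evolving complex of photosystem II, stood at 897 and 885 CPM in agb1 and 275 and 282 CPM in hy5 (1.68 ± 0.052). PSAD-2 and PSAF, subunits of photosystem I, differed by 1.52 ± 0.059 and 1.48 ± 0.047. The exceptions were FD2, a leaf ferredoxin, with 773 and 804 CPM in hy5 and 587 and 571 CPM in agb1 (-0.45 ± 0.051), and PSBS, which is needed for the dissipation of excess light energy (-0.25 ± 0.055). The genes of carbon fixation did not move with them. In the Calvin cycle list 6 of 18 tested members were higher in agb1 and 8 in hy5, with a median of -0.043. Among the small subunits of Rubisco, RBCS1A was higher in agb1 (0.40 ± 0.041), whereas RBCS2B (-0.39 ± 0.049), RBCS3B (-0.28 ± 0.044) and RBCS1B (-0.23 ± 0.049) were higher in hy5. These 4 are close copies, which limits their single values in the same way as those of LHCB1. The Rubisco activase gene RCA was also higher in hy5 (-0.31 ± 0.044).

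In the synthesis of chlorophyll, 10 of 16 members were higher in agb1 and 1 was higher in hy5, with a median of 0.20. With library sizes alone as the scaling, 7 were higher in agb1. PORB, which reduces protochlorophyllide in light, stood at 252 and 256 CPM in agb1 and 88.1 and 88.4 CPM in hy5 (1.52 ± 0.057), and CRD1, a subunit of the cyclase, at 936 and 967 CPM in agb1 and 491 and 484 CPM in hy5 (0.96 ± 0.050). Both agb1 libraries lay above both hy5 libraries in these genes. PORA, the form of the reductase that accumulates in darkness, went the other way at a low level, with 2.76 and 2.33 CPM in hy5 and 0.595 and 0.922 CPM in agb1 (-1.76 ± 0.33). Of 10 genes for protection and repair in light, 5 were higher in agb1 and 2 in hy5 (median 0.15). CRY3, a cryptochrome of the organelles, and UVR3, a photolyase, were higher in agb1 (0.84 ± 0.11 and 0.66 ± 0.075), and RUP1, a repressor of the UV-B receptor, was higher in hy5 (-0.65 ± 0.084).

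**Figure D2:**
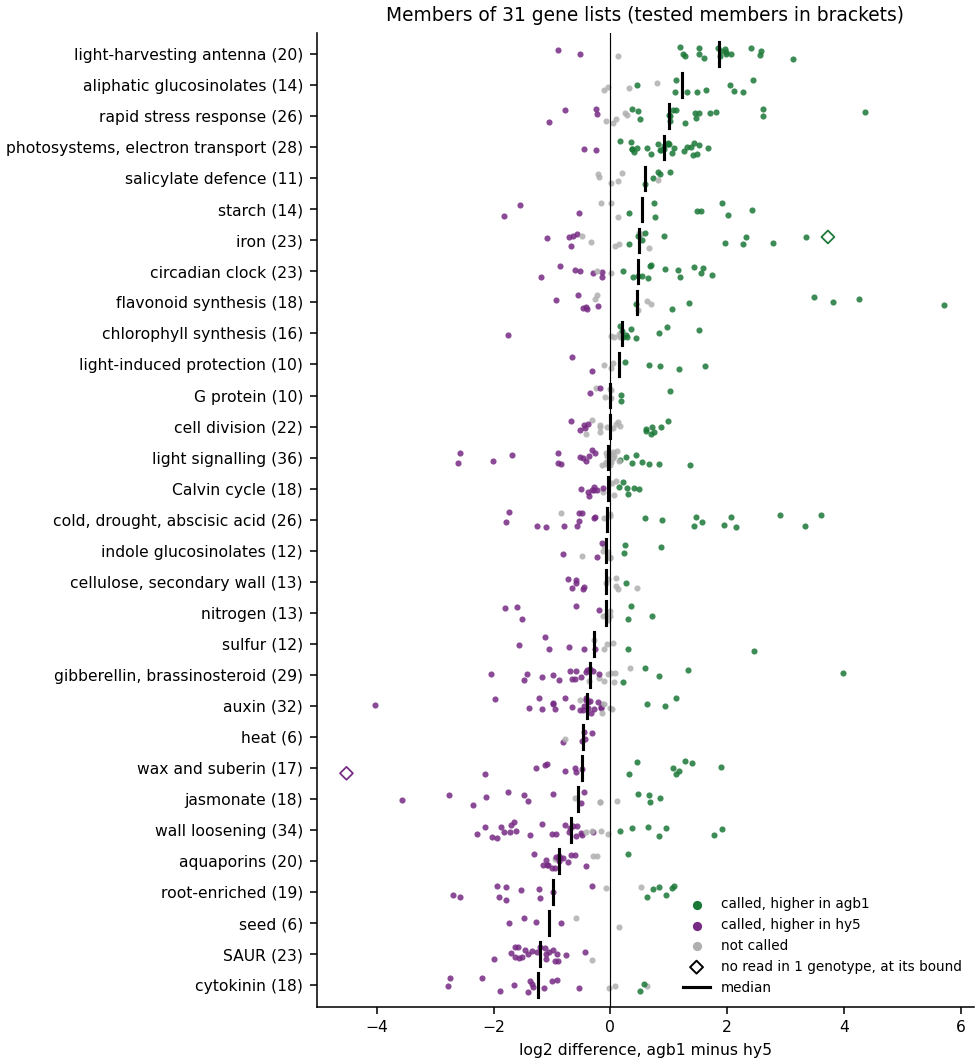
Log2 difference (agb1 minus hy5) of every tested member of 31 gene lists, ordered by the median of the list (black bar), with the number of tested members in brackets. The antenna list has the highest median, 1.86, and the cytokinin list the lowest, -1.23; diamonds are members without a read in 1 genotype, drawn at the bound that 3 reads over that genotype set.

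Flavonoid genes split within the pathway. Flavonoids are made from phenylalanine: a general phenylpropanoid part leads to coumaroyl-CoA, chalcone synthase (CHS) commits it to flavonoids, flavanone 3-hydroxylase (F3H) carries it on, and flavonol synthase (FLS1) makes flavonols. Of 28 listed genes 18 had enough reads, 7 of them higher in agb1 and 6 in hy5, with a median of 0.46. CHS stood at 27.5 and 25.7 CPM in agb1 and 1.91 and 1.85 CPM in hy5 (3.82 ± 0.14, adjusted p = 6.46e-20), a 14.1-fold difference. F3H stood at 13.1 and 12.8 CPM in agb1 and 0.844 and 1.41 CPM in hy5 (3.496 ± 0.19). FLS1, at 5.79 and 5.93 CPM in agb1 and 0.0563 and 0.146 CPM in hy5, was close to absent in hy5 (5.72 ± 0.38, or 6.53 without hy5 replicate 2), and MYB12, the MYB factor that activates these genes, stood at 3.35 and 3.88 CPM in agb1 and 0.225 and 0.146 CPM in hy5 (4.25 ± 0.40). In all of these the agb1 libraries lay above the hy5 libraries with a wide gap. MYBL2, a MYB repressor of the pathway, was also higher in agb1 (1.06 ± 0.057). The general enzymes PAL1 (-0.56 ± 0.057), C4H (-0.41 ± 0.055) and 4CL1 (-0.48 ± 0.061) were higher in hy5, as was the chalcone isomerase gene CHI (-0.93 ± 0.14). The late genes of anthocyanin synthesis, DFR and LDOX, and their activators PAP1, PAP2 and TT8 had too few reads to be tested.

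The 250 bases before the annotated gene start of these 4 genes, and of 2 B-box genes that differed in the other direction (BBX30 and BBX31, described further on), are shown because HY5 is known to bind ACGT cores. They were read from the TAIR10.1 genome in the direction of the gene, and the 6 genes were chosen after their values were seen. Capitals mark, on either strand, the G-box CACGTG, the ACGT core that it contains, and the evening element AAAATATCT, a motif known from clock-controlled promoters. The windows were chr5:4488226-4488475 for CHS, chr3:19024942-19025191 for F3H, chr5:2803583-2803832 for FLS1, chr2:19476076-19476325 for MYB12 and chr4:8708591-8708840 for BBX30, all on the plus strand, and chr3:7709934-7710183 for BBX31, on the minus strand.
CHS: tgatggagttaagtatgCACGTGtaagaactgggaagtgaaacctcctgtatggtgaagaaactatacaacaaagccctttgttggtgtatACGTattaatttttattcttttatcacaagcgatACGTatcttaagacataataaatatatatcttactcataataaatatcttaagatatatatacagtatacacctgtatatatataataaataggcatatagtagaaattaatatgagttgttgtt
F3H: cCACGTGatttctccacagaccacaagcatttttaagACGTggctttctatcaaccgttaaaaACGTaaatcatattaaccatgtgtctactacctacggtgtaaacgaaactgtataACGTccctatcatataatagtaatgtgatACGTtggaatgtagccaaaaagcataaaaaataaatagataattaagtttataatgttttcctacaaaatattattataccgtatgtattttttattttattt
FLS1: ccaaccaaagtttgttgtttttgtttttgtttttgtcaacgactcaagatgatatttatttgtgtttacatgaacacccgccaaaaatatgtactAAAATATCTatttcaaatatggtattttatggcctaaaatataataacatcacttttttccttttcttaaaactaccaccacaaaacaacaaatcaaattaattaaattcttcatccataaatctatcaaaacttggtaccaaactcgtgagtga
MYB12: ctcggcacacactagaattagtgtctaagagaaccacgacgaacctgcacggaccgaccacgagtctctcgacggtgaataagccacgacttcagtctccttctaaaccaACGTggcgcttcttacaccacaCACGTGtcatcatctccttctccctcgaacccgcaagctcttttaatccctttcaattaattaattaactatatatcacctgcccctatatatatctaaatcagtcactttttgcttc
BBX30: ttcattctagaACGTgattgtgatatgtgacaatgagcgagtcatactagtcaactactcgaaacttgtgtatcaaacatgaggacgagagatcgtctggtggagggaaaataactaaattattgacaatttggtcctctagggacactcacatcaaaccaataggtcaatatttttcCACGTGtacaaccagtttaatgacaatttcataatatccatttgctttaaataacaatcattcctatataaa
BBX31: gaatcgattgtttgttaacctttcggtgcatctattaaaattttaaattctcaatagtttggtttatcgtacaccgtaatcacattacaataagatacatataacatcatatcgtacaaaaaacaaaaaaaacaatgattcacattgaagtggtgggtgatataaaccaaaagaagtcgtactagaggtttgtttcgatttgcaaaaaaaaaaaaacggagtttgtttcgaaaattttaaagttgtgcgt
A G-box was found once each in the windows of CHS, F3H, MYB12 and BBX30. The CHS window held 3 ACGT cores, that of F3H 5, and those of MYB12 and BBX30 2 each, the G-box included. The FLS1 window held none of these but 1 evening element, and the BBX31 window held no match to any of the motifs. Over the windows of all 20112 tested nuclear loci, 7.36% held a G-box, 44.6% an ACGT core and 2.46% an evening element. Among loci higher in agb1 by at least 2-fold the shares were 9.18%, 49.3% and 5.31%, and among those higher in hy5 by at least 2-fold 8.68%, 49.8% and 2.15%. The G-box and the ACGT core were thus about as frequent on either side, and the share with an evening element was higher on the agb1 side; these shares are descriptions without a test, and a match in the letters is not a binding site.

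Among the components of light signalling most receptors were close in level. CRY1 differed by -0.081 ± 0.056 (adjusted p = 0.235), CRY2 by -0.057 ± 0.055 (adjusted p = 0.411) and PHYA by -0.079 ± 0.050 (adjusted p = 0.196), none of them called; with library sizes alone CRY1 and PHYA were called higher in hy5. COP1 (-0.0045 ± 0.078, adjusted p = 0.969) and HYH, the homologue of HY5 (0.14 ± 0.14, adjusted p = 0.405), were not called either. Of 36 tested members 8 were higher in agb1 and 13 in hy5, with a median of -0.041. The members that differed most were B-box proteins, zinc finger factors that act with HY5 in seedling light responses. BBX30 stood at 7.54 and 7.83 CPM in hy5 and 1.41 and 1.05 CPM in agb1 (-2.62 ± 0.22). BBX31 stood at 11.6 and 10.3 CPM in hy5 and 1.51 and 2.17 CPM in agb1 (-2.58 ± 0.19), and BBX25 at 82.1 and 78.2 CPM in hy5 and 26.2 and 23.3 CPM in agb1 (-1.69 ± 0.074). Both hy5 libraries lay well above both agb1 libraries in these genes. BBX32, a further small B-box protein, followed them (-2.01 ± 0.27), whereas BBX22, which promotes light responses, was higher in agb1, with 73.6 and 71.9 CPM in agb1 and 27.9 and 28.5 CPM in hy5 (1.37 ± 0.070). SPA3 and SPA4, partners of COP1, were higher in hy5 (-0.89 ± 0.075 and -0.89 ± 0.094). The phytochrome-interacting factors divided, with PIF1 higher in hy5 (-0.85 ± 0.081) and PIF4 and PIF5 higher in agb1 (0.67 ± 0.060 and 0.38 ± 0.065).

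Clock genes differed in both directions. In plants the morning factors CCA1 and LHY and the evening factor TOC1 repress each other, and the pseudo-response regulators PRR9, PRR7 and PRR5 act between them in sequence through the day. Of 23 tested members 14 were higher in agb1 and 7 in hy5, with a median of 0.47. PRR7 stood at 230.4 and 239.7 CPM in agb1 and 81.4 and 79.5 CPM in hy5 (1.55 ± 0.059), and PRR5 at 127 and 127 CPM in agb1 and 42.9 and 41.8 CPM in hy5 (1.58 ± 0.062). FKF1, a blue-light receptor that acts in the evening, stood at 80.9 and 82.0 CPM in agb1 and 25.5 and 23.5 CPM in hy5 (1.73 ± 0.071). For these genes the agb1 level was about 3-fold the hy5 level in both replicates. ELF4 (1.44 ± 0.086), GI (1.19 ± 0.060), PRR9 (0.94 ± 0.12) and TOC1 (0.68 ± 0.057) were higher in agb1 as well. Other members went the other way: CCA1 stood at 70.1 and 59.2 CPM in hy5 and 43.0 and 41.3 CPM in agb1 (-0.61 ± 0.075), LHY at -0.52 ± 0.071, RVE8 at -0.86 ± 0.10, and RVE1, which links the clock to auxin, at -1.19 ± 0.068. The hour of harvest is not given, so a difference in level and a shift in phase cannot be told apart.

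**Figure D3:**
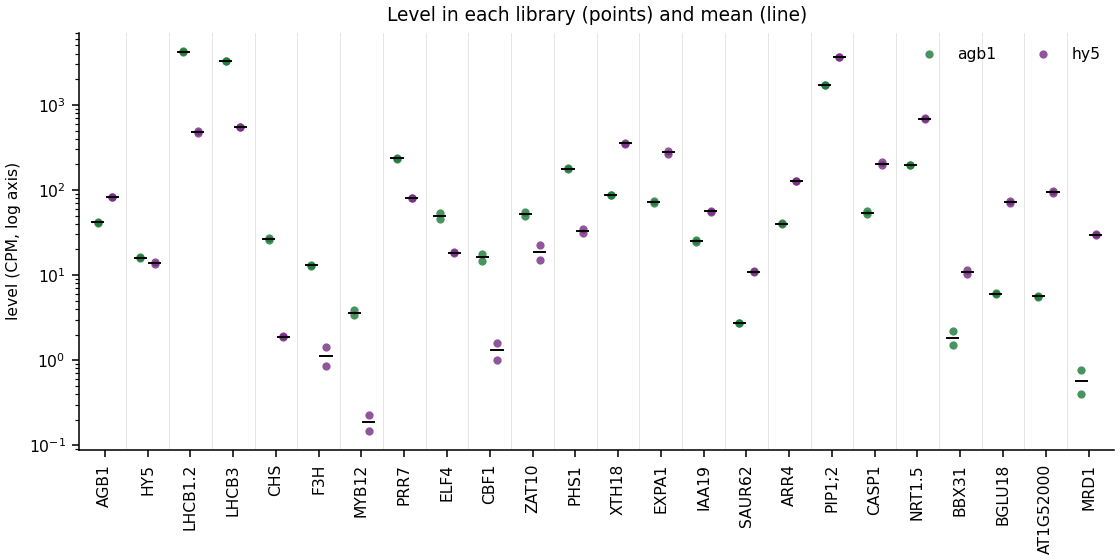
Level of 24 genes in each agb1 library (green) and each hy5 library (purple), with the mean as a line, on a log axis of CPM. The libraries of 1 genotype lie close together in comparison with the distance between the genotypes in all genes shown except HY5, for which the distance is small.

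Most listed genes of wall loosening and growth hormones lay on the hy5 side. Expansins loosen the bonds between wall polymers, and xyloglucan endotransglucosylase/hydrolases (XTH) cut and rejoin xyloglucan. Of 34 tested members 23 were higher in hy5, 13 of them by at least 2-fold, and 7 were higher in agb1, with a median of -0.67. XTH18 stood at 349 and 359 CPM in hy5 and 87.7 and 86.3 CPM in agb1 (-2.03 ± 0.058, adjusted p = 1.42e-22). XTH17 stood at 390.5 and 399 CPM in hy5 and 123 and 118 CPM in agb1 (-1.71 ± 0.057), and EXPA1 at 288 and 267 CPM in hy5 and 73.3 and 70.5 CPM in agb1 (-1.95 ± 0.061). Both hy5 libraries were more than 3-fold above both agb1 libraries in these genes. EXPB3 (-2.29 ± 0.13) and EXPA4 (-1.63 ± 0.081) followed them. EXPA2 stood at 8.67 and 8.26 CPM in hy5 and 2.65 and 0.988 CPM in agb1 (-2.16 ± 0.22), with agb1 libraries that were far apart, and its difference was -3.09 without agb1 replicate 1. XTH15 and XTH9 went the other way: XTH15 stood at 1136 and 1197 CPM in agb1 and 334 and 348 CPM in hy5 (1.77 ± 0.052), and XTH9 at 74.2 and 73.3 CPM in agb1 and 21.1 and 18.4 CPM in hy5 (1.91 ± 0.077). By product name the XTH family was nearly balanced. Of 27 tested members 11 (40.7%) were higher in agb1 and 13 (48.1%) in hy5, 5 and 5 of them by at least 2-fold (median -0.30). Of 24 tested expansins 6 were higher in agb1 and 12 in hy5 (median -0.33).

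Auxin acts by removing Aux/IAA repressors, and many of these repressors are themselves induced by auxin. In the auxin list 23 of 32 tested members were higher in hy5 and 3 in agb1, with a median of -0.40. IAA19 stood at 55.8 and 56.8 CPM in hy5 and 25.8 and 24.2 CPM in agb1 (-1.17 ± 0.075), IAA6 at 10.9 and 16.6 CPM in hy5 and 3.35 and 3.75 CPM in agb1 (-1.97 ± 0.18) and IAA17 at 144 and 159 CPM in hy5 and 75.5 and 76.8 CPM in agb1 (-0.99 ± 0.062). The 2 genotypes did not overlap in these genes. IAA5 had 3 reads in agb1 and 60 in hy5, and its agb1 level was 5.71% of the hy5 level (95% Poisson interval 1.18% to 16.7%). The auxin carriers PIN3 and AUX1 were higher in hy5 (-0.78 ± 0.058 and -0.45 ± 0.057). The members higher in agb1 were IAA29 (0.63 ± 0.067), the auxin-conjugating enzyme GH3.3 (0.93 ± 0.11) and YUC9, an enzyme of auxin synthesis (1.12 ± 0.21). SAUR proteins activate plasma membrane proton pumps and so promote cell expansion. Of 23 listed SAUR genes 22 were higher in hy5, 16 by at least 2-fold, and 0 in agb1, with a median of -1.203. SAUR66 stood at 20.4 and 20.7 CPM in hy5 and 6.38 and 6.91 CPM in agb1 (-1.63 ± 0.12), SAUR19 at 14.7 and 16.2 CPM in hy5 and 7.85 and 6.25 CPM in agb1 (-1.12 ± 0.13) and SAUR50 at 30.6 and 30.9 CPM in hy5 and 14.6 and 14.1 CPM in agb1 (-1.10 ± 0.090). The listed genes were selected for elongating organs. Of all 62 tested SAUR-like proteins 37 were higher in hy5 and 7 in agb1, 5 of these by at least 2-fold, with a median of -0.89. Among the opposing genes AT1G56150 stood at 2.81 and 2.17 CPM in agb1 and 0.169 and 0.146 CPM in hy5 (3.95 ± 0.45). SAUR19 to SAUR24 and SAUR62 to SAUR68 lie in clusters of close copies, so reads may be divided among them.

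The other growth hormones added to this side. Of the genes for gibberellin and brassinosteroid 16 of 29 tested members were higher in hy5 and 5 in agb1 (median -0.36). The gibberellin-responsive gene GASA6 stood at 116 and 103 CPM in hy5 and 41.6 and 39.5 CPM in agb1 (-1.43 ± 0.069), and the growth-promoting bHLH gene PRE1 at 10.4 and 10.3 CPM in hy5 and 3.46 and 4.02 CPM in agb1 (-1.47 ± 0.16). Of the synthesis genes, GA20OX1 was higher in hy5, with 4.33 and 4.57 CPM in hy5 and 0.812 and 1.38 CPM in agb1 (-2.05 ± 0.26), and GA3OX1, of the next step, was higher in agb1 (0.84 ± 0.24), a call lost with DESeq2 (adjusted p = 0.0751). GA3OX2, a further gene for that step, had 45 reads in agb1 and 3 in hy5, and its hy5 level was 5.84% of the agb1 level (95% Poisson interval 1.204% to 17.1%). The brassinosteroid receptor gene BRI1 was not called (0.017 ± 0.056, adjusted p = 0.826). In the cytokinin list 13 of 18 tested members were higher in hy5, 11 by at least 2-fold, and 2 in agb1, with the lowest median of the 31 lists, -1.23. The type-A response regulators, which cytokinin induces, included ARR4 with 126 and 126 CPM in hy5 and 40.5 and 39.8 CPM in agb1 (-1.65 ± 0.063), ARR5 with 30.8 and 35.2 CPM in hy5 and 12.7 and 12.1 CPM in agb1 (-1.41 ± 0.10) and ARR16 with 3.66 and 3.79 CPM in hy5 and 0.487 and 0.593 CPM in agb1 (-2.79 ± 0.31). All 3 were higher in both hy5 libraries than in either agb1 library. CYP735A2, which makes trans-zeatin, stood at 21.0 and 21.2 CPM in hy5 and 3.41 and 2.83 CPM in agb1 (-2.74 ± 0.14). The members higher in agb1 were ARR3 (0.50 ± 0.21) and IPT3 (0.57 ± 0.16). The call of ARR3 did not hold when any of the 4 libraries was dropped (adjusted p between 0.0536 and 0.245), and that of IPT3 did not hold with hy5 replicate 2 dropped (adjusted p = 0.0959). The count of the list higher in agb1 was 1 without agb1 replicate 1, agb1 replicate 2 or hy5 replicate 1 and 0 without hy5 replicate 2.

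Genes of cellulose synthesis differed less, none by 2-fold. Of 13 tested members 6 were higher in hy5 and 1 in agb1, with a median of -0.072, and the count higher in agb1 was 2 without agb1 replicate 1 and 3 without hy5 replicate 1. The secondary-wall subunits CESA4 (-0.47 ± 0.072), CESA7 (-0.58 ± 0.074) and CESA8 (-0.59 ± 0.076) were higher in hy5. Among primary-wall subunits CESA5 was higher in hy5 (-0.46 ± 0.070) and CESA2 in agb1 (0.26 ± 0.059), and CESA1 (0.13 ± 0.058, adjusted p = 0.0576), CESA3 (-0.036 ± 0.053, adjusted p = 0.598) and CESA6 (-0.072 ± 0.054, adjusted p = 0.280) were not called. CESA1 was called higher in agb1 when hy5 replicate 1 was dropped (adjusted p = 0.00359) or agb1 replicate 1 was (adjusted p = 0.0291). Aquaporins, which let water through the plasma membrane (PIP) and the vacuolar membrane (TIP), were higher in hy5 in 16 of 20 tested members and higher in agb1 in 1, with a median of -0.88. PIP2;1 stood at 2584 and 2667 CPM in hy5 and 1042 and 1084 CPM in agb1 (-1.30 ± 0.047), PIP1;2 at 3692 and 3615 CPM in hy5 and 1701 and 1695 CPM in agb1 (-1.11 ± 0.044) and TIP2;2 at 925 and 992 CPM in hy5 and 431 and 434 CPM in agb1 (-1.15 ± 0.052). For these genes the replicates differed little beside the distance between the mutants. The member higher in agb1 was TIP4;1 (0.30 ± 0.11), whose call was lost when agb1 replicate 2 was dropped (adjusted p = 0.440) or hy5 replicate 1 was (adjusted p = 0.246).

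Root-enriched genes did not move as a block. Whole seedlings were used, so fewer cells of a type and less RNA per cell cannot be told apart in any of these results. Of 19 genes that mark root tissues 11 were higher in hy5 and 6 in agb1, with a median of -0.98. Their summed level was 3197 and 3188 CPM in agb1 and 7199 and 7387 CPM in hy5, most of it from PYK10, a root beta-glucosidase (-1.203 ± 0.041). Genes of the Casparian strip, the band that seals the endodermis, were on the hy5 side: CASP1 stood at 196 and 212 CPM in hy5 and 52.3 and 56.4 CPM in agb1 (-1.91 ± 0.064), and CASP4 at 22.3 and 20.8 CPM in hy5 and 3.35 and 3.29 CPM in agb1 (-2.69 ± 0.13). Both hy5 libraries exceeded both agb1 libraries severalfold in these genes. CASP2 (-1.94 ± 0.079), CASP5 (-1.79 ± 0.077) and ESB1, a dirigent protein of the strip (-1.79 ± 0.059), followed, although ESB1 lies over a locus on the opposite strand with many reads and its single value is uncertain. Root-hair genes were on the agb1 side: PRP3 stood at 79.0 and 90.9 CPM in agb1 and 36.0 and 43.5 CPM in hy5 (1.09 ± 0.078), LRX1 at 30.0 and 34.8 CPM in agb1 and 14.6 and 16.4 CPM in hy5 (1.06 ± 0.094) and RHD2, the oxidase of growing hairs, at 10.9 and 11.1 CPM in agb1 and 5.74 and 5.64 CPM in hy5 (0.95 ± 0.14). COBL9 (0.83 ± 0.13), EXPA7 (0.62 ± 0.14) and EXPA18 (0.73 ± 0.13) followed them. The antenna list, taken as a marker of green tissue, had summed levels of 106952 and 105938 CPM in agb1 and 25381 and 25562 CPM in hy5. The Calvin cycle list, also of photosynthesis, did not share this difference. Its summed levels were 20002 and 20028 CPM in agb1 and 20379 and 19925 CPM in hy5. The part that the proportion of root to shoot has in the lists above was not tested.

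Genes of barrier lipids were also divided. All 17 tested members of the wax and suberin list were called, 9 higher in hy5 and 8 in agb1, with a median of -0.49. The cuticular wax genes CER1, with 25.8 and 24.1 CPM in hy5 and 10.01 and 10.7 CPM in agb1 (-1.27 ± 0.10), KCS1 (-1.13 ± 0.056) and CER6 (-0.59 ± 0.053) were higher in hy5. WSD1, a wax ester synthase, had 0 reads in agb1 and 78 in hy5, so its level was at least 22.96-fold higher in hy5 when 3 reads over the group are taken as the floor. On the agb1 side stood genes of suberin, the lipid polymer of the root: CYP86B1 with 21.1 and 22.5 CPM in agb1 and 6.25 and 5.49 CPM in hy5 (1.89 ± 0.12), ASFT with 61.4 and 65.4 CPM in agb1 and 26.0 and 26.3 CPM in hy5 (1.28 ± 0.073), FAR5 (1.403 ± 0.15) and GPAT5 (1.12 ± 0.11). FACT (-2.15 ± 0.14) and FAR1 (-1.09 ± 0.068), which make suberin-associated waxes and alcohols, were higher in hy5. Seed genes, as markers of storage tissue, had 6 of 15 members with enough reads; 0 were higher in agb1 and 4 in hy5, with a median of -1.06 and summed levels of 11.3 and 10.3 CPM in agb1 and 15.5 and 19.0 CPM in hy5. The cruciferin gene CRA1 stood at 2.98 and 3.55 CPM in hy5 and 0.920 and 1.05 CPM in agb1 (-1.74 ± 0.28). The count higher in hy5 was 7 without agb1 replicate 1, 5 without agb1 replicate 2, 5 without hy5 replicate 1 and 3 without hy5 replicate 2, with other numbers of members past the filter on low counts. EM6 and OLEO2, of the 4 called, lost their calls without hy5 replicate 2 (adjusted p = 0.0720 and 0.215). OLEO2 also lost its call without agb1 replicate 2 (adjusted p = 0.164) and with DESeq2 (adjusted p = 0.137).

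The CBF factors and several of their targets were higher in agb1, while drought and abscisic acid genes were divided. CBF1, CBF2 and CBF3 are the cold-induced factors that switch on the COR genes, and they lie next to each other on chromosome 4. CBF1 stood at 17.9 and 14.5 CPM in agb1 and 1.01 and 1.604 CPM in hy5 (3.61 ± 0.19), CBF2 at 28.8 and 30.4 CPM in agb1 and 6.81 and 6.56 CPM in hy5 (2.14 ± 0.11) and CBF3 at 6.71 and 7.04 CPM in agb1 and 1.29 and 0.583 CPM in hy5 (2.90 ± 0.25). Every agb1 library was above every hy5 library, and the difference of CBF3 was 3.54 without hy5 replicate 1. Their target COR15B stood at 37.3 and 36.9 CPM in agb1 and 4.16 and 3.21 CPM in hy5 (3.34 ± 0.12), COR78 at 439 and 442 CPM in agb1 and 157 and 163 CPM in hy5 (1.46 ± 0.055) and KIN1 at 45.2 and 41.3 CPM in agb1 and 9.74 and 10.8 CPM in hy5 (2.07 ± 0.093). The genotypes did not overlap in these targets, but COR15B shares 468 bases with a locus on the opposite strand, and KIN1 and KIN2 are close copies. In the whole list 11 of 26 tested members were higher in agb1 and 11 in hy5, with a median of -0.054. On the hy5 side were RD29B (-1.74 ± 0.084), RD22 (-1.11 ± 0.067), which drought induces, and the abscisic acid phosphatases HAB1 (-0.80 ± 0.068) and ABI1 (-0.49 ± 0.058). COR47 and the dehydrin RAB18 were not called (adjusted p = 0.942 and 0.965).

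Genes known to respond quickly to stress or touch, most of them for transcription factors, were mostly higher in agb1. Of 26 tested members 17 were higher in agb1, 13 by at least 2-fold, and 4 in hy5, with a median of 1.01. RRTF1, a redox-responsive factor, stood at 10.98 and 9.55 CPM in agb1 and 0.506 and 0.486 CPM in hy5 (4.36 ± 0.24). ZAT10, a zinc finger repressor, stood at 50.05 and 54.9 CPM in agb1 and 15.1 and 22.6 CPM in hy5 (1.46 ± 0.10), and ERF6, of the ethylene response factors, at 26.0 and 22.3 CPM in agb1 and 7.77 and 9.04 CPM in hy5 (1.52 ± 0.11). The agb1 libraries were above the hy5 libraries in these genes, and for ZAT10 the hy5 libraries themselves differed by about 1.5-fold. RRTF1 shares 301 bases with an opposite-strand locus. WRKY40 (1.70 ± 0.13), ZAT12 (1.57 ± 0.11) and SZF1 (1.13 ± 0.066) were higher in agb1 too. ZAT5 (-1.04 ± 0.077) and the calmodulin-like gene CML9 (-0.78 ± 0.075) were higher in hy5. How quickly the seedlings were frozen is not given, and its part in these genes was not tested.

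The salicylate genes that differed were higher in agb1, and more jasmonate genes were higher in hy5 than in agb1. In the salicylate list 11 of 20 members had enough reads, 5 of them higher in agb1 and 0 in hy5, with a median of 0.59. Without hy5 replicate 1, 3 were higher in agb1. FLS2, the receptor of bacterial flagellin, stood at 42.6 and 41.7 CPM in agb1 and 23.5 and 23.5 CPM in hy5 (0.84 ± 0.077), and ICS1, of salicylate synthesis, at 24.5 and 25.8 CPM in agb1 and 14.9 and 15.5 CPM in hy5 (0.72 ± 0.092). The 2 genotypes did not overlap in either gene. PR1 was not called (0.81 ± 0.40, adjusted p = 0.0926). Its difference was 1.23 without agb1 replicate 2 and 0.065 without agb1 replicate 1. EDS1, not called in the reported result, moved toward hy5 in some alternatives. With library sizes alone it was called higher in hy5 (-0.27, adjusted p = 0.0167). It was also called so when only the most-read model of each locus was counted (-0.30, adjusted p = 0.0323). Without hy5 replicate 2 the difference of EDS1 was -0.30. In the jasmonate list 10 of 18 tested members were higher in hy5, 7 by at least 2-fold, and 4 in agb1, with a median of -0.55. BGLU18, a beta-glucosidase, stood at 74.3 and 70.8 CPM in hy5 and 6.22 and 5.93 CPM in agb1 (-3.57 ± 0.093), LOX4, a lipoxygenase of jasmonate synthesis, at 8.78 and 7.39 CPM in hy5 and 1.51 and 1.65 CPM in agb1 (-2.35 ± 0.20), and the vegetative storage protein gene VSP1 at 27.5 and 30.1 CPM in hy5 and 6.28 and 6.91 CPM in agb1 (-2.13 ± 0.11). Both hy5 libraries were above both agb1 libraries throughout. The genes of jasmonate synthesis and signalling were not uniform, since AOC2 (0.68 ± 0.070), AOC3 (0.85 ± 0.12) and JAZ1 (0.66 ± 0.092) were higher in agb1 and JAZ9 (-1.41 ± 0.075) in hy5. Of 6 tested heat-shock genes, from a list of 13, 5 were higher in hy5 and 0 in agb1 (median -0.47), with HSP70-4 at -0.82 ± 0.073. The wider family did not share this direction. Of 90 tested heat shock proteins by product name 27 (30%) were higher in agb1 and 23 (25.6%) in hy5, with a median of 0.029. These shares were near those over all loci.

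Genes of aliphatic glucosinolates, sulfur-rich defence compounds made from methionine, lay on the agb1 side. Of 14 tested members 10 were higher in agb1, 9 by at least 2-fold, and 0 in hy5, with a median of 1.22. MAM1 and MAM3, which lengthen the methionine chain, stood at 10.2 and 9.22 CPM in agb1 and 2.42 and 2.29 CPM in hy5 (2.05 ± 0.17) and at 10.06 and 9.09 CPM in agb1 and 2.14 and 2.29 CPM in hy5 (2.11 ± 0.18). CYP79F2, which starts the core pathway, stood at 5.30 and 4.02 CPM in agb1 and 1.18 and 0.583 CPM in hy5 (2.44 ± 0.28). The agb1 level was about 4 to 5 times the hy5 level in these genes, although reads of MAM1 and MAM3 and of CYP79F2 and its neighbour CYP79F1 may be divided between close copies. Their regulator MYB28 differed less (0.46 ± 0.10). Of 12 genes of indole glucosinolates, made from tryptophan, 3 were higher in agb1 and 3 in hy5 (median -0.071), with CYP79B2 at 0.86 ± 0.069. The share called, 50%, was near the 50.4% over all loci. The count higher in hy5 was 0 without agb1 replicate 1, 1 without agb1 replicate 2, 1 without hy5 replicate 1 and 1 without hy5 replicate 2, and the count higher in agb1 was 1 without hy5 replicate 1.

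Starch breakdown and iron uptake gave further contrasts. At night starch is phosphorylated, cut and exported, and several enzymes of these steps were higher in agb1. PHS1, a plastid glucan phosphorylase, stood at 179.7 and 175 CPM in agb1 and 34.7 and 31.5 CPM in hy5 (2.43 ± 0.066). SEX1, the glucan, water dikinase, stood at 623 and 649.9 CPM in agb1 and 173 and 164 CPM in hy5 (1.92 ± 0.056), and DPE1, a disproportionating enzyme, at 68.9 and 68.1 CPM in agb1 and 17.56 and 16.5 CPM in hy5 (2.01 ± 0.077). The genotypes were separated by about 4-fold or more in each. DPE2 (1.55 ± 0.061) and ISA3 (1.48 ± 0.081) followed, whereas the beta-amylase genes BAM3 (-0.54 ± 0.057) and BAM9 (-1.54 ± 0.062) and the plastid glucose-phosphate carrier GPT2 (-1.82 ± 0.27) were higher in hy5. In the whole list 8 of 14 tested members were higher in agb1 and 3 in hy5 (median 0.53). In the iron list 11 of 23 were higher in agb1 and 5 in hy5 (median 0.49). BHLH38 and BHLH101, factors induced by iron shortage, stood at 3.35 and 4.87 CPM in agb1 and 0.450 and 0.340 CPM in hy5 (3.35 ± 0.34) and at 7.52 and 9.81 CPM in agb1 and 1.69 and 1.85 CPM in hy5 (2.27 ± 0.20), and IRT1, the root iron transporter, at 4.82 and 4.87 CPM in agb1 and 1.18 and 0.778 CPM in hy5 (2.32 ± 0.26). BHLH100, of the same group, had 35 reads in agb1 and 0 in hy5, at least 13.2-fold higher in agb1 by the floor of 3 reads over the group. Both agb1 libraries were above both hy5 libraries in BHLH38, BHLH101 and IRT1. BHLH101 shares 79 bases with an opposite-strand locus that has many reads, and BHLH38 shares 386 bases with another, so their single values are uncertain. The nicotianamine synthase gene NAS1 went the other way, with 33.5 and 35.7 CPM in hy5 and 15.6 and 17.3 CPM in agb1 (-1.08 ± 0.088). FIT was also called higher in hy5, a call lost with DESeq2 (-0.56, adjusted p = 0.195). The ferritin FER1, which stores iron, stood at 133 and 146 CPM in hy5 and 89.1 and 91.0 CPM in agb1 (-0.64 ± 0.061), and the proton pump AHA2 at 1472 and 1377 CPM in hy5 and 852 and 887 CPM in agb1 (-0.71 ± 0.050), both higher in hy5.

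Several transporters of nitrogen and sulfur stood on the hy5 side. NRT1.5, which loads nitrate into the xylem, stood at 680.2 and 699 CPM in hy5 and 199 and 196 CPM in agb1 (-1.80 ± 0.054), NRT1.1, the nitrate transceptor, at 484 and 498 CPM in hy5 and 327 and 328 CPM in agb1 (-0.59 ± 0.053), and the ammonium transporter AMT1;2 at 68.7 and 70.3 CPM in hy5 and 23.5 and 22.2 CPM in agb1 (-1.602 ± 0.074). Each was higher in both hy5 libraries. The nitrate reductase gene NIA1 (0.35 ± 0.049) and the asparagine synthetase gene ASN2 (0.71 ± 0.058) were higher in agb1. The nitrogen list as a whole had 3 of 13 higher in agb1 and 5 in hy5, with a median of -0.078. The sulfate carriers SULTR3;1 and SULTR1;2 were higher in hy5, with 18.9 and 19.2 CPM in hy5 and 1.95 and 2.11 CPM in agb1 (-3.23 ± 0.15) and 93.6 and 93.5 CPM in hy5 and 45.1 and 45.6 CPM in agb1 (-1.04 ± 0.064). SULTR1;1, a root carrier of high affinity, was higher in agb1 (2.46 ± 0.41). In the sulfur list 6 of 12 tested members were higher in hy5 and 2 in agb1, or 1 in agb1 whichever of the 4 libraries was left out, with a median of -0.28; SULTR3;1 is not in that list.

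Cell division genes differed in both directions, none by a called 2-fold. Of 22 tested members 7 were higher in agb1 and 5 in hy5, with a median of -0.0093. The share called, 54.5%, was near the 50.4% over all loci, so these counts do not set the list apart. The MCM genes, whose products form the replicative helicase, were higher in agb1, MCM4 with 11.8 and 12.8 CPM in agb1 and 6.42 and 5.98 CPM in hy5 (0.99 ± 0.13) and MCM2 with 12.2 and 12.8 CPM in agb1 and 7.82 and 5.98 CPM in hy5 (0.86 ± 0.14). The mitotic kinase gene CDKB2;1 was higher in hy5, with 22.1 and 23.3 CPM in hy5 and 14.3 and 14.2 CPM in agb1 (-0.67 ± 0.10). The genotypes did not overlap in these 3 genes. Without hy5 replicate 1 the count higher in hy5 was 2, and with library sizes alone it was 8.

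Families taken by product name from the annotation differed in the shares of members called on each side. Of the pentatricopeptide repeat proteins, which process organelle RNA, 195 of 547 were called higher in agb1 and 30 higher in hy5 (median 0.31). Of the ribosomal proteins 129 of 319 were called higher in agb1 and 34 higher in hy5 (median 0.13), 4 and 1 of them by at least 2-fold. With library sizes alone these counts were 159 and 40 for the repeat proteins and 96 and 50 for the ribosomal proteins, which kept the same direction. Among aminoacyl-tRNA synthetases 24 of 53 were called higher in agb1 and 7 higher in hy5 (median 0.21). Among resistance proteins with a nucleotide-binding domain 37 of 129 were called higher in agb1 and 13 higher in hy5 (median 0.055), but with library sizes alone these counts were 28 and 16 and the median turned to -0.014. On the other side, among arabinogalactan proteins, glycoproteins of the wall, 6 of 44 were called higher in agb1 and 25 higher in hy5 (median -0.46). Among cytochrome P450 enzymes 36 of 178 were called higher in agb1 and 79 higher in hy5 (median -0.24), and among glutathione S-transferases 7 of 43 were called higher in agb1 and 20 higher in hy5 (median -0.26). Among peroxidases 15 of 53 were called higher in agb1 and 28 higher in hy5 (median -0.20). Calls of at least 2-fold in these families were closer to balance. For agb1 and hy5 in turn they were 17 and 22 P450 enzymes and 9 and 11 peroxidases. Glutathione S-transferases had 2 and 2, and arabinogalactan proteins 4 and 8. Set beside the 24.3% and 26.1% over all loci, the repeat proteins had 35.6% and 5.48%, and the arabinogalactan proteins 13.6% and 56.8%.

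**Figure D4:**
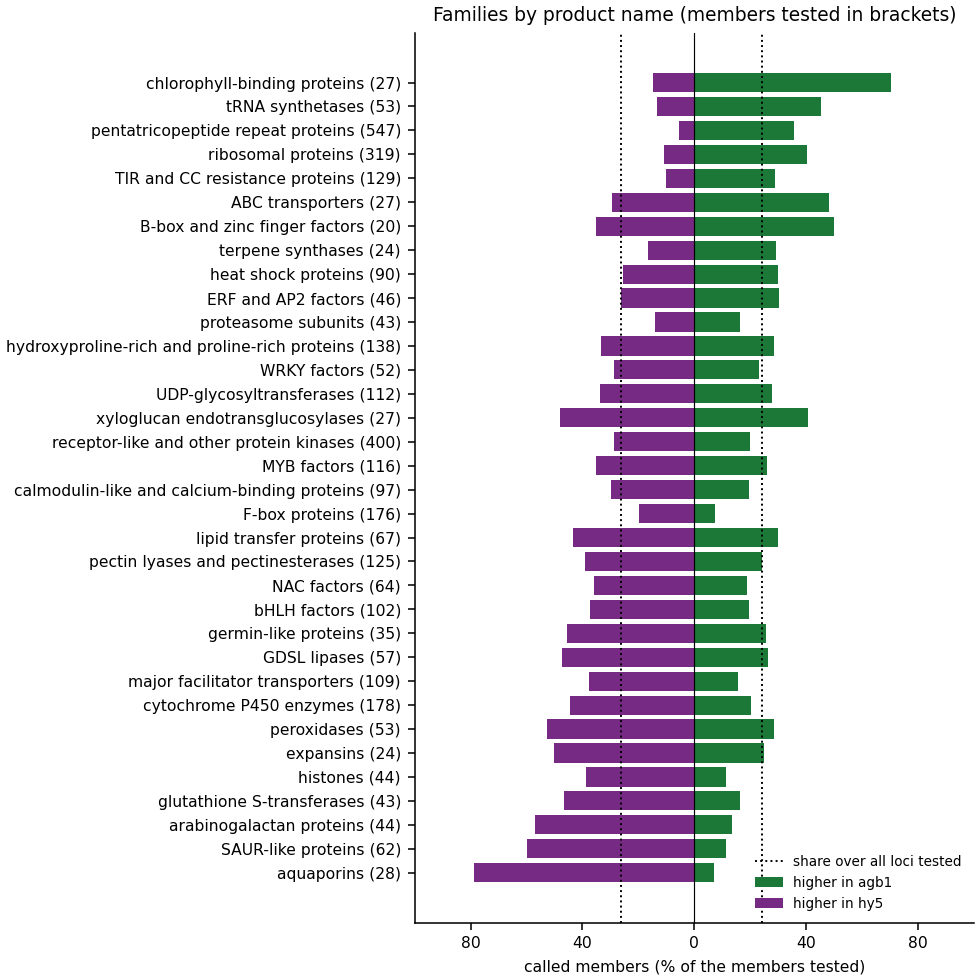
Share of tested members called higher in agb1 (green, to the right) and higher in hy5 (purple, to the left) in families with at least 20 tested members, ordered by the difference of the shares. Dotted lines give the shares over all loci tested, 24.3% and 26.1%; chlorophyll-binding proteins reach 70.4% on the agb1 side and aquaporins 78.6% on the hy5 side.

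Several of the largest differences belonged to genes of no list. AT3G05727, annotated in the pollen coat protein family that binds an S locus-related glycoprotein, stood at 44.5 and 47.5 CPM in agb1 and 0.338 and 0.486 CPM in hy5 (6.76 ± 0.17, adjusted p = 3.30e-24), and its neighbour AT3G05730, a defensin-like peptide, at 322 and 312 CPM in agb1 and 27.3 and 20.1 CPM in hy5 (3.75 ± 0.083). AT3G16670, of the pollen Ole e 1 family, stood at 24.9 and 25.7 CPM in agb1 and 0.450 and 0.681 CPM in hy5 (5.45 ± 0.18), and AT1G65570, a pectin lyase-like protein, at 15.5 and 16.7 CPM in agb1 and 0.788 and 0.535 CPM in hy5 (4.61 ± 0.20). All of these were higher in both agb1 libraries and near 0 in hy5, except AT3G05730, which kept a moderate level. On the hy5 side MRD1 stood at 30.2 and 29.4 CPM in hy5 and 0.757 and 0.395 CPM in agb1 (-5.63 ± 0.18), but it shares 1446 bases with HEI10 on the opposite strand. AT1G52000, a mannose-binding lectin, stood at 96.3 and 91.9 CPM in hy5 and 5.74 and 5.53 CPM in agb1 (-4.06 ± 0.091), AT1G30760, of the berberine-bridge enzymes, at 165 and 178 CPM in hy5 and 12.8 and 13.4 CPM in agb1 (-3.72 ± 0.076), and ENODL1, an early nodulin-like protein, at 118 and 121 CPM in hy5 and 13.3 and 12.6 CPM in agb1 (-3.20 ± 0.076). In these the hy5 libraries were about 9-fold or more above the agb1 libraries. LTP4, a lipid transfer protein, had 3 reads in agb1 and 259 in hy5, and its agb1 level was 1.32% of the hy5 level (95% Poisson interval 0.272% to 3.85%).

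Several of the largest differences on the agb1 side came from loci that lie side by side in a tract of chromosome 4. It runs from AT4G22475 to AT4G22520 (bases 11844242 to 11858970 of TAIR10.1), and most loci in it are annotated in the superfamily of bifunctional inhibitors, lipid transfer proteins and seed storage albumins. AT4G22485 had 681 and 594 reads in agb1 and 12 and 7 in hy5, and AT4G22475, on the opposite strand of the same bases, 721 and 593 reads in agb1 and 11 and 11 in hy5. AT4G22505 had 314 and 339 reads in agb1 and 0 and 1 in hy5, so that its hy5 level was 0.133% of the agb1 level (95% Poisson interval 0.00336% to 0.739%). Every locus of the tract was higher in both agb1 libraries, and AT4G22490 differed least, with 13.6 and 15.6 CPM in agb1 and 3.15 and 2.77 CPM in hy5 (2.298 ± 0.15). Since overlapping loci may share reads, the tract counts as fewer independent transcripts than it has loci. At its borders the pattern ended: AT4G22470 was higher in hy5, with 11.9 and 13.1 CPM in hy5 and 2.71 and 2.11 CPM in agb1 (-2.36 ± 0.17), and AT4G22530 was not called (-0.25 ± 0.19, adjusted p = 0.287).

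The levels of the other 2 genotypes, scaled together with these 4 libraries, place some of the differences. Of the 982 genes higher in agb1 by at least 2-fold the mean of WT lay between those of the mutants in 815, above agb1 in 122 and below hy5 in 45. Of the 1124 higher in hy5 it lay between them in 994 and above hy5 in 29, and below agb1 in the rest. Over all calls it lay between them in 3772 of 4922 genes higher in agb1 and 3955 of 5281 higher in hy5. These genes were chosen for the distance between the mutants, which by itself favours a WT mean between them. No share over all loci was taken, so these counts do not show that the mutants moved in opposite directions from WT. PRR7 stood at 247 and 239 CPM in WT, close to its level in agb1 (240.3 and 250.1 CPM), and AT3G05727 at 5.99 and 6.70 CPM in WT against 46.4 and 49.6 CPM in agb1 and 0.352 and 0.507 CPM in hy5. BBX31 stood at 3.04 and 1.89 CPM in WT and 0.775 and 0.510 CPM in cry1 cry2, so that of the 4 genotypes only hy5 had a high level. AT1G48100, a pectin lyase-like protein, had 14.4 and 12.6 CPM in hy5 and at most 1.93 CPM in any library of the other 3 genotypes. The tract on chromosome 4 was near absent in cry1 cry2 as well, with 16 and 11 reads at AT4G22485, while WT had 157 and 124. AT4G22490 was the exception, with 178 and 171 reads in cry1 cry2. These values are descriptions, and no test against WT was made here.

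**Figure D5:**
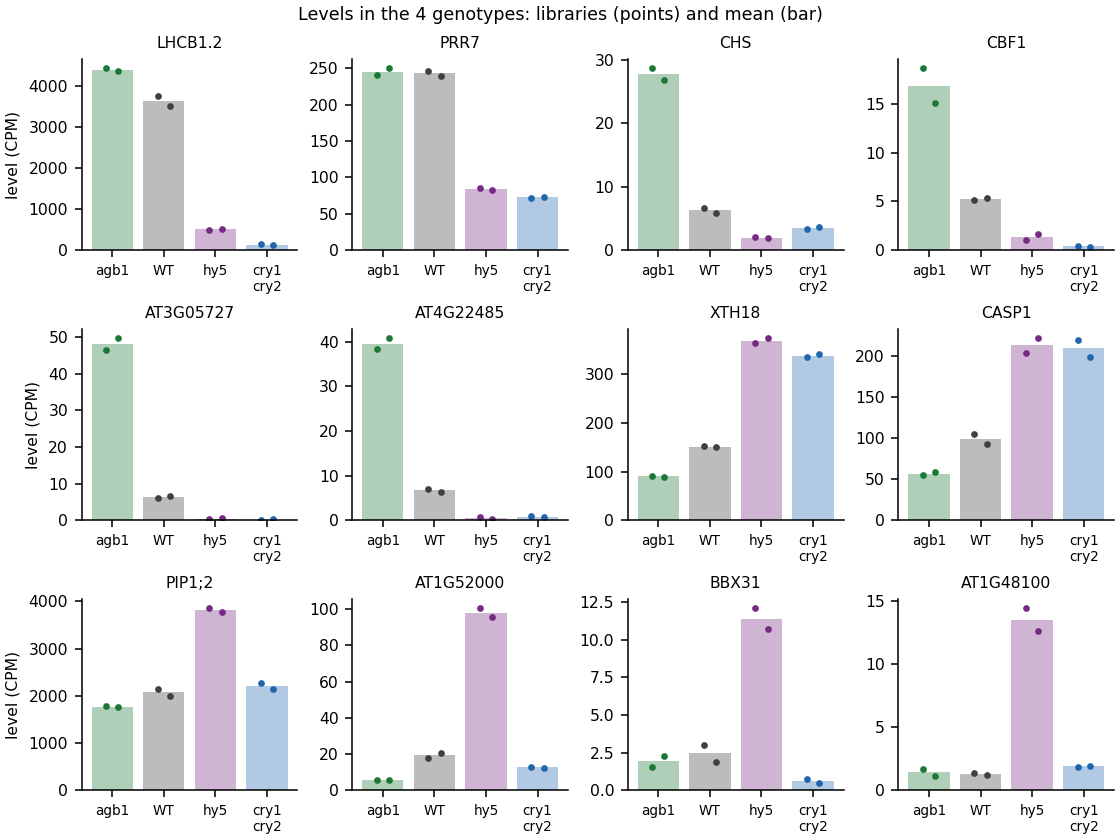
Level in CPM (linear axes from 0) of 12 genes in agb1, WT, hy5 and cry1 cry2, with points for the 2 libraries of each genotype and bars for their mean. LHCB1.2 and the clock gene PRR7 are low in both hy5 and cry1 cry2, whereas BBX31, AT1G52000 and AT1G48100 are high in hy5 alone.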

How the data were processed

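RNA sequencing of whole Arabidopsis seedlings was analysed from 8 deposited files, 1 per library. Per the submitters' processing notes, Bowtie2 2.2.2 and the TAIR10 genome were used; the sources used here name no counting tool, strand setting or treatment of reads with several matches. The deposited values are read counts per transcript model, which were summed here over the 48321 models of 27628 loci. Of the loci, 27420 matched the RefSeq annotation of TAIR10.1, which gave names, products, positions and promoter windows.

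The 2 agb1 and 2 hy5 libraries (15651218 to 20072882 reads) were compared with edgeR 4.0.16 (R 4.3.3): filterByExpr with a minimum count of 10, TMM scaling, the quasi-likelihood F test and Benjamini-Hochberg adjustment over 20252 loci. The standard error was derived from each log2 difference and the square root of its F. Each locus had only 2 residual degrees of freedom, and the quasi-likelihood test adds to them by sharing the estimate of spread across loci. The p-values and standard errors rest on that shared estimate. The labels do not say that replicates came from separate cultures, so p-values measure the spread between these libraries. The fit was tested on simulated counts with 200 changed genes and 1 common spread. It recovered 74% of the 1.5-fold and 91% of the 2-fold changes, and 10 of its 175 calls were unchanged genes. The data have many more calls and a spread that differs by gene, so these rates do not carry over to them. Intervals and floors cover counting error only. The 13 alternatives include DESeq2 1.42.0 and leaving out each library.

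Members, lists and families were chosen with earlier results of these data known. Named genes are the 12 largest increases and decreases with a mean of at least 5 CPM. They also include 4 genes per list, 2 per family and 10 near-zero genes. A further 131 were added after their values were seen, and motifs and promoters were also chosen then. WRKY40, RD29B, HAB1, ABI1 and CESA2 are given in the text outside this rule. They are not among the 343 named genes followed through the alternatives.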

Additional observations from a re-analysis of the deposited data

How the results depend on the processing

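The count of loci that differed between agb1 and hy5 was 10203 and stayed between 8340 and 9273 when each library was left out, and the count of at least 2-fold, 2106, between 1958 and 2134. DESeq2 called 6908 loci. With library sizes alone as the scaling, the median of all loci shifted by -0.0697 and 3985 of 10370 calls (38.4%) were higher in agb1, against 48.2% with TMM. Requiring at least 5 CPM in 2 libraries left 15565 of 20252 loci and gave 8679 calls, against 10203. Calls of at least 2-fold fell more strongly, from 2106 to 1183, so that count depends on loci with low counts. Calls shared between an alternative and the reported result had the same direction in all 13 alternatives. The deviations of the libraries numbered 1 correlated at 0.0096 between the mutants. This shows no shared shift by replicate number across genes, but it cannot tell whether the libraries were paired by dish or day. A fit with the replicate number as a block called 9644 loci, 2072 of them by at least 2-fold. Of the 343 named genes 317 were called, and 296 kept call and direction in every alternative that gave them a value; the filter at 5 CPM gave none for some of them. Of 806 list counts compared, 63 moved by over 1.5 times, in 14 lists. At the lowest depth, levels near 0.192 CPM rest on 3 reads.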
